A study of Mus musculus with 50 samples.

Results

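Msc, Prmt8, Inhbb, Islr2 and Igsf21 are 5 protein-coding genes that were among the furthest below control when mouse embryonic stem cells (mESCs) lost methyltransferases of histone H3 lysine 9 (H3K9). They are 5 of the 24411 genes listed in both expression tables, and all 5 passed the filter on low values in each table (13862 and 13817 genes). The genes were chosen from their falls against control, with no cut-off stated, so their levels against control and with or without Setdb1 are given as descriptions with no test. Tests are given for doxycycline and for loss of Dux, which the choice did not name. The libraries without doxycycline and those of the quadruple knockout may still have entered the choice, and genes picked for low values there are more likely to be higher in the libraries they are then set against, while genes picked for high control values are more likely to be lower.

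H3K9 methylation marks silent chromatin. Setdb1 deposits the trimethyl mark, above all at retroelements and at silenced genes, Suv39h1 and Suv39h2 do so at pericentromeric heterochromatin, and G9a (gene Ehmt2) deposits the dimethyl mark in euchromatin. Loss of these enzymes is best known for releasing silenced genes and repeats. Dux is a transcription factor of the early cleavage embryo that switches on genes of the 2-cell stage. Msc encodes musculin, a basic helix-loop-helix (bHLH) repressor known from muscle and B cells. Inhbb encodes the beta subunit shared by activin B and inhibin B, secreted ligands of the TGF-beta family. Prmt8 encodes a membrane-anchored protein arginine methyltransferase that is largely restricted to the brain. Islr2 encodes a neuronal membrane protein with leucine-rich repeats and an immunoglobulin domain that takes part in axon guidance, and Igsf21 encodes an immunoglobulin-superfamily protein that binds a neurexin at inhibitory synapses.

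Polyadenylated RNA of mESCs of strain TT2 was sequenced with a stranded mRNA kit, and the deposited values are TPM, relative abundances scaled for transcript length and library total. The first table holds 18 libraries of Setdb1-KO, Suv39h1/2-DKO, Suv39h1/2;Setdb1-TKO, G9a-KO, G9a;Setdb1-DKO, G9a;Suv39h1/2-TKO, G9a;Suv39h1/2;Setdb1-QKO (QKO below), Dux-KO:G9a;Suv39h1/2;Setdb1-QKO (Dux-KO QKO below) and control cells, 2 libraries a group. The second table holds 32 libraries of Tet-on-Dux:Dux-KO cells, which lack endogenous Dux and carry a doxycycline-driven Dux transgene in every group, controls included. Here control and the 7 H3K9 genotypes (without Dux-KO QKO) were each sequenced with and without doxycycline, again 2 libraries a group. The dose label is 0.2 for control and Setdb1-KO and 1 for the other 6 genotypes, with no unit. Setdb1-KO, Suv39h1/2;Setdb1-TKO, G9a;Setdb1-DKO and QKO each share the line name of the genotype that keeps Setdb1, and titles of all groups without Setdb1 carry OHT where those of the others carry NT. The labels explain neither, so OHT and Setdb1 loss cannot be told apart. Dux-KO QKO has a line name of its own, so loss of Dux and the line cannot be told apart, and neither can G9a or Suv39h1/2 loss and the line. Nothing in the labels says that the 2 libraries of a group came from separate cultures. The p-values therefore measure the spread between these libraries, which may be technical, and depth is unknown because TPM keeps none.

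Of the ES cell markers, 8 of 8 stood at 1 TPM or more in all libraries of both tables, and at most 2 of 8 fibroblast markers did. The targeted genes were lower without them: Ehmt2 stood at 7.38 to 30.2 TPM in G9a-less libraries and 82.5 to 104 TPM in the others of the first table, and Setdb1 at 19.8 to 36.5 TPM without and 41.4 to 53.2 TPM with the gene. Suv39h1 and Suv39h2 overlapped between these classes in the first table, at 11.1 to 22.9 TPM against 21.3 to 34.0 TPM for Suv39h1 and 12.1 to 17.1 TPM against 14.4 to 27.2 TPM for Suv39h2. Of the 32 libraries of the second table, 6 stood apart in the mean log2(TPM + 1) of 15 small nucleolar RNA host genes (Snhg), at 4.16 to 4.61 against 2.40 to 3.26 in the other 26. They are control replicate 1 without doxycycline, replicate 2 of Setdb1-KO in both states, G9a-KO replicate 2 with doxycycline, and replicate 2 of G9a;Setdb1-DKO in both states. All 18 libraries of the first table stood at 4.3 to 4.87, nearer to the 6 than to the 26. Differences between the 2 tables thus go along with this difference in Snhg level, and its part was not tested. Members' values in the second table are given below with and without these 6. The cells are bulk samples, so fewer cells with a transcript and less transcript per cell cannot be told apart.

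All 5 genes lie on the minus strand of GRCm38 (annotation GENCODE M21). Msc is at chr1:14753346-14755992, Prmt8 at chr6:127689011-127769472, Inhbb at chr1:119415465-119422248, Islr2 at chr9:58196297-58204319 and Igsf21 at chr4:140026846-140246784. Their spans run over 2.6 kb for Msc, 6.8 kb for Inhbb, 8.0 kb for Islr2, 80.5 kb for Prmt8 and 219.9 kb for Igsf21. Msc, Prmt8 and Igsf21 overlap annotated antisense transcripts, Islr2 overlaps Islr on its own strand, and Inhbb overlaps no annotated gene. The notes on processing do not say whether counting used strand, so the values of the 4 overlapped genes could hold reads of their partners.

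The results turn on how genes that are all low in QKO differ between single losses, and the start regions of 3 of them are shown for comparison. RefSeq promoter windows (250 bases before to 50 after the start, GRCm38.p6) were matched for 4 of the 5 genes, 7 windows in all. The 250 bases before the start follow for 3 of them, each read 5′ to 3′ on the minus strand and outside annotated exons. Capitals mark the GC box GGGCGG, searched on both strands, where overlapping matches run together.
Inhbb (chr1:119422249-119422498): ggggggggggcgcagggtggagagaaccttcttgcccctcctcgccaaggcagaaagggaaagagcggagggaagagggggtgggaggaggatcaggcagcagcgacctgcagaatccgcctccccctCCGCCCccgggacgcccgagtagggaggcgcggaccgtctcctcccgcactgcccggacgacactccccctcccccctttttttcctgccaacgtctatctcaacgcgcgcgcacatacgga
Islr2 (chr9:58204320-58204569): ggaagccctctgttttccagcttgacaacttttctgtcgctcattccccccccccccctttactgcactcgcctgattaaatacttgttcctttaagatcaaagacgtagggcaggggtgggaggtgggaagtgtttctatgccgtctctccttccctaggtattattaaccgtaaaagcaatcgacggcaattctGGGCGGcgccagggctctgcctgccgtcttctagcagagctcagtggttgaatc
Igsf21 (chr4:140246812-140247061): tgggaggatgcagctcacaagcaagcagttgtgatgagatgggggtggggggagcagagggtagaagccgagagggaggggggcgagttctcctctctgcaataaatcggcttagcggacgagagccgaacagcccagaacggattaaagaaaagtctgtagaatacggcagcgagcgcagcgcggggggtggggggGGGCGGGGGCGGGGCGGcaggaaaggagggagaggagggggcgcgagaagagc

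The GC box occurred in 5 of the 7 windows, and in 35.7% of all 32851 windows of that length. Igsf21 had 3 matches, each of the 2 overlapping Prmt8 windows had 2, Inhbb had 1, and Islr2 had 1 in the window shown and 0 in its other 2. The windows of Prmt8 held 43 and 44 CpG dinucleotides, that of Igsf21 26, that of Inhbb 23 and those of Islr2 6 to 14, against a median of 7 over all windows. The bHLH sites CAGCTG and CACGTG (16.3% and 7.2% of all windows), the TATA box TATAAA (13.6%) and the nuclear receptor motif AGGTCA (16.3%), each searched on both strands, had 0 matches in the 7 windows. TAATCC, a homeobox site found in 7.1% of all windows, occurred in that of Igsf21, and CCAAT (37.4%) in 1 of Islr2. The background is all windows and not those of genes expressed in these cells, so no trait particular to the 5 genes is drawn from it. A match here is a description of these letters and not of binding.

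Msc and Prmt8 stood lowest where Setdb1 was lost, Islr2 where G9a was lost, and Inhbb and Igsf21 were low after either loss, Inhbb lower in Setdb1-KO than in G9a-KO and Igsf21 lower in G9a-KO than in Setdb1-KO. In Suv39h1/2-DKO the 5 genes stood at 71.0% to 120% of their control means. The values of each gene in the first table follow, ligand and transcription factor before the enzyme and the membrane proteins.

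Inhbb stood at 4.41 and 5.37 TPM in Setdb1-KO, 7.98 and 7.0 TPM in Suv39h1/2;Setdb1-TKO, 4.04 and 4.37 TPM in G9a;Setdb1-DKO and 11.3 and 7.14 TPM in QKO, against 37.5 and 35.7 TPM in control. It was also low without G9a alone, at 10.6 and 10.1 TPM in G9a-KO, which overlapped QKO. With Suv39h1 and Suv39h2 lost in addition to G9a, at 31.5 and 26.6 TPM, it lay closer to control, and in Suv39h1/2-DKO, at 43.7 and 41.9 TPM, above it. Against control its log2 fold change was −2.68 in Setdb1-KO, −2.85 in G9a;Setdb1-DKO, −1.73 in G9a-KO and −0.33 in G9a;Suv39h1/2-TKO (SE 0.169). The mean level was 7.49-fold lower in Setdb1-KO than in control (4.89 ± 0.683 against 36.6 ± 1.31 TPM, SD, n = 2 each).

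Msc stood at 5.12 and 3.05 TPM in Setdb1-KO, 3.17 and 2.65 TPM in Suv39h1/2;Setdb1-TKO, 19.8 and 16.3 TPM in G9a;Setdb1-DKO and 7.21 and 5.16 TPM in QKO, against 53.2 and 45.5 TPM in control. Of all 13862 genes tested it had the lowest log2 fold change in Setdb1-KO (−3.33, SE 0.194) and in Suv39h1/2;Setdb1-TKO (−3.68), with means 12.1-fold and 16.9-fold lower than in control. In the G9a-less cells that kept Setdb1 it lay closer to control than in cells without Setdb1. It stood at 42.9 and 36.3 TPM in G9a-KO, below both control libraries, and at 65.8 and 54.6 TPM in G9a;Suv39h1/2-TKO, above both. In Suv39h1/2-DKO, at 46.0 and 41.8 TPM, it overlapped control. Its level in G9a;Setdb1-DKO was the highest of the 4 groups without Setdb1, and its 2 libraries lay above all 6 libraries of the other 3.

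Prmt8 stood at 1.64 and 2.28 TPM in Setdb1-KO, 1.67 and 1.59 TPM in Suv39h1/2;Setdb1-TKO, 1.77 and 2.54 TPM in G9a;Setdb1-DKO and 3.27 and 2.94 TPM in QKO, against 19.6 and 17.6 TPM in control. In the groups that kept Setdb1 it was at 13.1 and 13.3 TPM in Suv39h1/2-DKO, 8.59 and 9.17 TPM in G9a-KO and 15.9 and 16 TPM in G9a;Suv39h1/2-TKO. All 7 genotypes lay below control with no overlap, and the groups without Setdb1 lay below each group with it. The log2 fold change was −2.73 in Setdb1-KO, the second lowest of all genes, −2.26 in QKO and −0.99 in G9a-KO (SE 0.146).

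Islr2 stood at 3.11 and 2.34 TPM in G9a-KO, 1.55 and 1.29 TPM in G9a;Setdb1-DKO, 5.31 and 3.06 TPM in G9a;Suv39h1/2-TKO and 1.88 and 1.95 TPM in QKO, against 39.4 and 35.8 TPM in control. It had the lowest log2 fold change of all genes in G9a-KO (−3.38, SE 0.180) and in G9a;Setdb1-DKO (−4.00), where its mean was 3.78% of control. Without Setdb1 but with G9a its level lay between, at 12.8 and 14.5 TPM in Setdb1-KO and 24.3 and 22.1 TPM in Suv39h1/2;Setdb1-TKO. In Suv39h1/2-DKO, at 35.1 and 36.1 TPM, it overlapped control.

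Igsf21 stood at 4.90 and 4.52 TPM in G9a-KO, 1.94 and 1.12 TPM in G9a;Setdb1-DKO, 9.50 and 8.79 TPM in G9a;Suv39h1/2-TKO and 2.31 and 1.18 TPM in QKO, against 32.2 and 25.0 TPM in control. Without Setdb1 but with G9a it was at 7.38 and 8.54 TPM in Setdb1-KO and at 11.3 and 9.27 TPM in Suv39h1/2;Setdb1-TKO. The libraries of Suv39h1/2;Setdb1-TKO overlapped those of G9a;Suv39h1/2-TKO. Suv39h1/2-DKO, at 36.6 and 32 TPM, overlapped control. The log2 fold change was −2.36 in G9a-KO, −3.56 in G9a;Setdb1-DKO and −1.71 in Setdb1-KO (SE 0.212), and both libraries of G9a;Setdb1-DKO lay below those of either single loss.

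**Figure D1:**
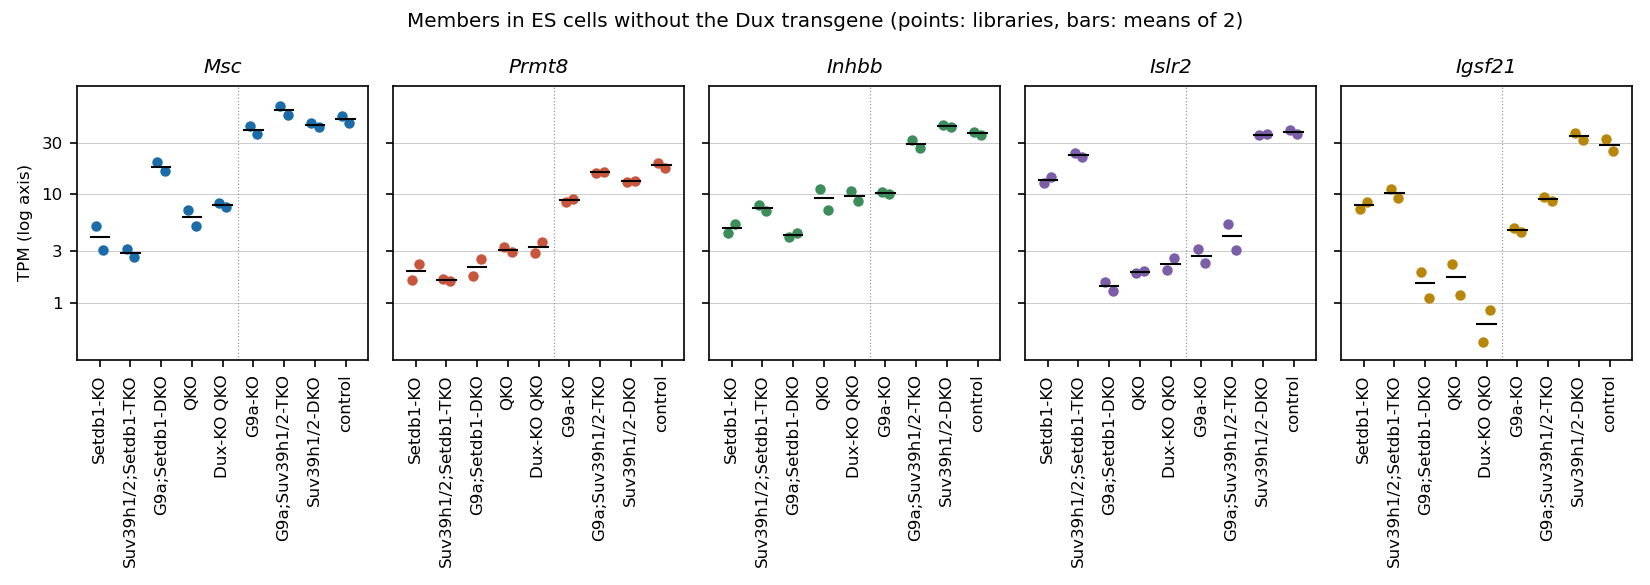
TPM on a log axis of Msc, Prmt8, Inhbb, Islr2 and Igsf21 in each library of the first table, by genotype, 2 points a group. Msc and Prmt8 lie lowest in the 4 genotypes without Setdb1 and in Dux-KO QKO, Islr2 lies lowest in those without G9a, and Suv39h1/2-DKO lies next to control.

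**Figure D2:**
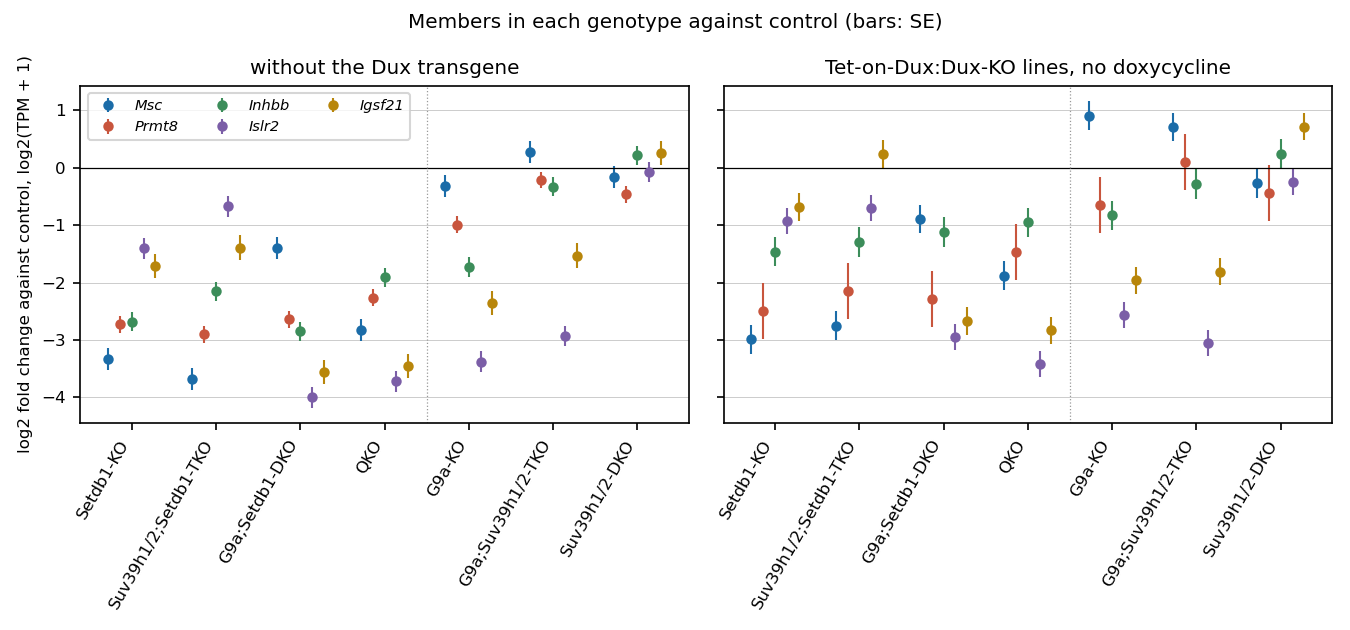
Log2 fold change against control of each gene, with its SE, in the first and second tables for the 7 genotypes. Islr2 reaches −4.00 in G9a;Setdb1-DKO of the first table, and Msc −3.68 in Suv39h1/2;Setdb1-TKO.

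Across the 9 group means of log2(TPM + 1) in the first table, and the 16 of the second, Prmt8 and Inhbb had a Pearson's r of 0.92 and 0.92, Msc and Prmt8 of 0.92 and 0.79, and Islr2 and Igsf21 of 0.90 and 0.93. Msc and Islr2 had an r of 0.09 and −0.16. These values describe group means that share libraries, lines and the choice of the genes. No p is given.

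All 15 values of the first table for Setdb1 loss in cells that already lacked other enzymes were below 0. In cells without Suv39h1 and Suv39h2 the log2 fold change of this step was −3.52 for Msc, −2.43 for Prmt8, −2.37 for Inhbb, −0.60 for Islr2 and −1.65 for Igsf21. In G9a-less cells the same step was −1.09 for Msc, −1.66 for Prmt8, −1.13 for Inhbb, −0.61 for Islr2 and −1.19 for Igsf21. In cells without G9a and Suv39h1/2 (QKO against G9a;Suv39h1/2-TKO) it was −3.10 for Msc, −2.05 for Prmt8, −1.58 for Inhbb, −0.80 for Islr2 and −1.92 for Igsf21. In this table Islr2 had the smallest step of the 5 in each background, and for Msc the step was smallest where G9a alone was missing. In the second table without doxycycline the step was −2.49 for Msc, −1.71 for Prmt8, −1.54 for Inhbb, −0.46 for Islr2 and −0.48 for Igsf21 in cells without Suv39h1 and Suv39h2, and −1.79, −1.64, −0.29, −0.38 and −0.70 in the same gene order in G9a-less cells. In cells without G9a and Suv39h1/2 it was −2.59, −1.57, −0.67, −0.37 and −1.01 in that order. There Inhbb, and not Islr2, had the smallest step in G9a-less cells. For the first table the SEs are those given above for each gene, and the contrasts share libraries with those that chose the genes.

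Summed markers of other cell states differed between the same groups. The 8 2-cell-like markers summed to 1308 to 1462 TPM in Setdb1-KO, 937 to 956 TPM in Suv39h1/2;Setdb1-TKO, 2355 to 2487 TPM in G9a;Setdb1-DKO and 5389 TPM in both QKO libraries, against 69.5 to 75.1 TPM in control, with 8 of 8 markers at 1 TPM or more in these 8 knockout libraries and 6 of 8 in control. They summed to 411 to 431 TPM in G9a-KO, 216 to 238 TPM in G9a;Suv39h1/2-TKO and 5.32 to 7.84 TPM in Suv39h1/2-DKO. The 8 primitive endoderm markers summed to 534 to 591 TPM in G9a-KO, 243 to 305 TPM in G9a;Setdb1-DKO, 506 to 600 TPM in G9a;Suv39h1/2-TKO and 129 to 153 TPM in QKO, against 80.3 to 85.0 TPM in control, with 7 or 8 of 8 at 1 TPM or more and none at 0. They summed to 119 to 154 TPM in Setdb1-KO, 186 to 230 TPM in Suv39h1/2;Setdb1-TKO and 144 to 156 TPM in Suv39h1/2-DKO. Of the 2-cell-like markers Tcstv3 and Zscan4c were each listed at 0 in 1 library of the first table. The summed level of the 8 neural markers was lower in each knockout than in control. They summed to 295 to 300 TPM in Setdb1-KO, 318 to 321 TPM in Suv39h1/2-DKO, 301 to 305 TPM in Suv39h1/2;Setdb1-TKO, 390 to 391 TPM in G9a-KO, 299 to 322 TPM in G9a;Setdb1-DKO, 347 to 350 TPM in G9a;Suv39h1/2-TKO, 290 to 328 TPM in QKO and 241 to 261 TPM in Dux-KO QKO, against 408 to 419 TPM in control. Such a sum follows its most abundant markers and need not hold for each. In G9a-KO the fall of Tubb3, given below, was larger than that of the sum, so the other markers together did not fall there. In each library 4 or 5 of the 8 neural markers stood at 1 TPM or more, and Dcx was listed at 0 in 12 of the 18 libraries. The part of these marker genes' cell states in the levels of the 5 genes was not tested. In the Dux-KO QKO libraries, where the 2-cell-like sum was 77.5 to 80.0 TPM and the primitive endoderm sum 359 to 372 TPM, the 5 genes were low as well, with values given below.

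In the second table Msc was again lowest without Setdb1 and Islr2 without G9a. Without doxycycline and without endogenous Dux, Msc stood at 1.13 and 1.37 TPM in Setdb1-KO, 1.06 and 2.41 TPM in Suv39h1/2;Setdb1-TKO, 9.89 and 7.57 TPM in G9a;Setdb1-DKO and 3.83 and 3.9 TPM in QKO, against 18 and 15.8 TPM in control. It stood at 31.9 and 33.1 TPM in G9a-KO and 28.0 and 28.6 TPM in G9a;Suv39h1/2-TKO, above control in all 4 libraries. In Suv39h1/2-DKO, at 10.8 and 17.7 TPM, it overlapped control. The 2-cell-like marker sum in these libraries was 27.2 to 47.0 TPM in Setdb1-KO, 7.21 to 11.2 TPM in Suv39h1/2-DKO, 6.50 to 7.83 TPM in Suv39h1/2;Setdb1-TKO, 55.6 to 72.1 TPM in G9a-KO, 192 to 308 TPM in G9a;Setdb1-DKO, 128 to 167 TPM in G9a;Suv39h1/2-TKO and 273 to 314 TPM in QKO, against 29.1 to 38.5 TPM in control. The 4 groups without G9a thus lay above control in this sum. The primitive endoderm sum was 307 to 423 TPM in G9a-KO and 187 to 214 TPM in control, and the neural sum was 170 to 230 TPM in Setdb1-KO, 192 to 199 TPM in QKO and 259 to 335 TPM in control. Their part in the members' levels was not tested.

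Islr2 in these cells stood at 2.80 and 4.77 TPM in G9a-KO, 2.92 and 2.32 TPM in G9a;Setdb1-DKO, 2.04 and 2.66 TPM in G9a;Suv39h1/2-TKO and 1.60 and 1.55 TPM in QKO, against 26.8 and 26.5 TPM in control. With G9a kept it was at 11.9 and 15.6 TPM in Setdb1-KO, 13.3 and 19.3 TPM in Suv39h1/2;Setdb1-TKO and 20.1 and 25.0 TPM in Suv39h1/2-DKO. The G9a-less groups of Islr2 thus lay below all others in both tables.

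Igsf21 stood at 4.43 and 2.92 TPM in G9a-KO, 2.3 and 1.43 TPM in G9a;Setdb1-DKO, 3.32 and 5.06 TPM in G9a;Suv39h1/2-TKO and 1.55 and 1.52 TPM in QKO, against 18.9 and 15.2 TPM in control. It differed from the first table in the groups that kept G9a: Suv39h1/2;Setdb1-TKO, at 18.6 and 21.9 TPM, overlapped control, and its log2 fold change was 0.24 (SE 0.239) in place of −1.39. Setdb1-KO was at 8.82 and 11.8 TPM and Suv39h1/2-DKO at 24.9 and 32.8 TPM.

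Prmt8 stood at 4.56 and 3.37 TPM in Setdb1-KO, 3.84 and 7.23 TPM in Suv39h1/2;Setdb1-TKO, 7.42 and 2.92 TPM in G9a;Setdb1-DKO and 7.79 and 10.6 TPM in QKO, against 22 and 34 TPM in control. G9a-KO was at 24.6 and 11.5 TPM, G9a;Suv39h1/2-TKO at 23.1 and 36.1 TPM and Suv39h1/2-DKO at 15.8 and 24.3 TPM, and each of these 3 overlapped control. Replicates of Prmt8 lay further apart here than in the first table, with an SE of 0.488 for a log2 fold change. In the line that holds G9a-KO and G9a;Setdb1-DKO, replicate 1 exceeded replicate 2 in 4 of 4 groups, by 1.04 to 1.45 log2 units.

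Inhbb stood at 3.59 and 5.07 TPM in Setdb1-KO, 4.56 and 5.33 TPM in Suv39h1/2;Setdb1-TKO, 4.98 and 6.43 TPM in G9a;Setdb1-DKO and 6.06 and 6.91 TPM in QKO, against 19.0 and 9.45 TPM in control. G9a-KO was at 7.28 and 7.05 TPM, G9a;Suv39h1/2-TKO at 11.3 and 10.6 TPM and Suv39h1/2-DKO at 15.9 and 16.6 TPM. Its differences from control were smaller than in the first table, with a log2 fold change of −1.46 in Setdb1-KO, −1.12 in G9a;Setdb1-DKO and −0.95 in QKO (SE 0.257). Control replicate 1, the higher of the 2, is one of the 6 libraries that stood apart, and without these 6 the values were −1.19, −0.80 and −0.48.

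Over the 50 genotype values of the second table, 48 kept their sign without the 6 libraries, and the largest move was 0.55. The other 2 were Prmt8 and Inhbb in G9a;Suv39h1/2-TKO, at 0.10 and −0.28 with all libraries and −0.21 and 0.19 without the 6.

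**Figure D3:**
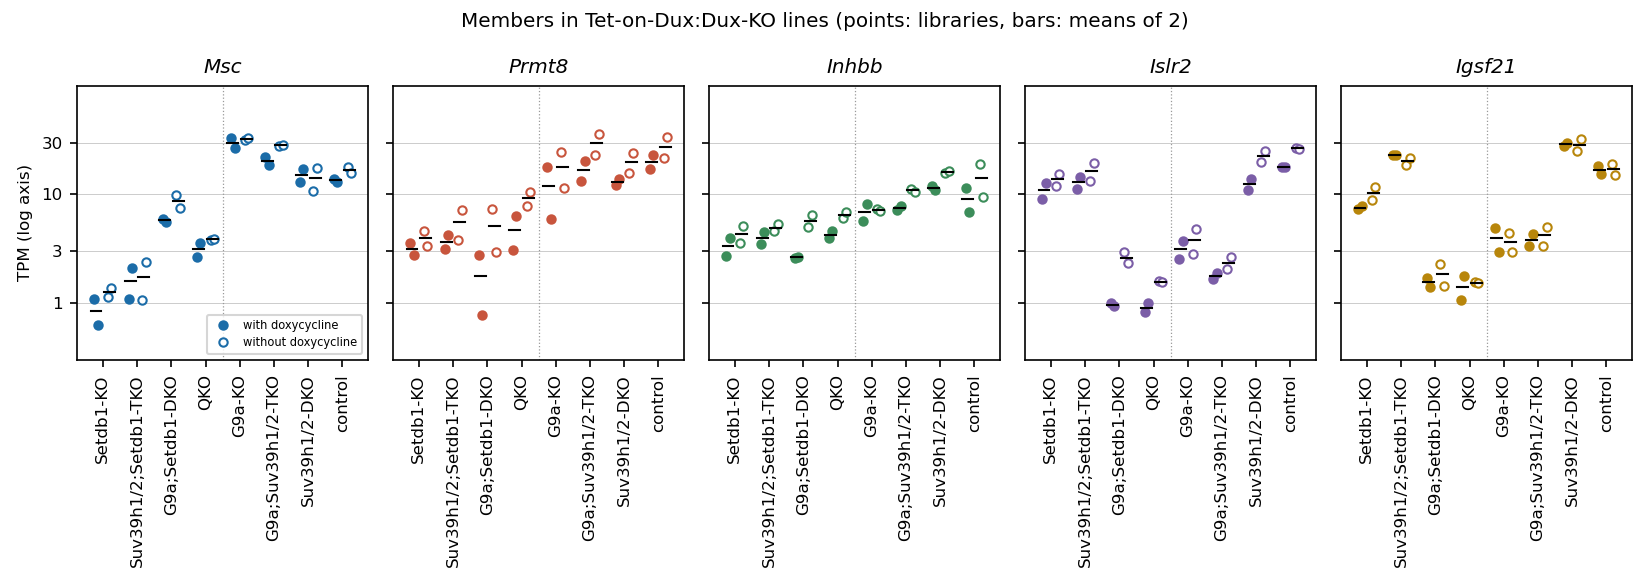
TPM on a log axis of the 5 genes in each library of the second table, by genotype, with and without doxycycline. Islr2 and Igsf21 lie lowest in the 4 genotypes without G9a, and Msc in Setdb1-KO and Suv39h1/2;Setdb1-TKO.

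Loss of Dux from QKO cells left the 5 genes low. Msc stood at 8.43 and 7.64 TPM in Dux-KO QKO and 7.21 and 5.16 TPM in QKO, Prmt8 at 2.88 and 3.62 TPM in Dux-KO QKO and 3.27 and 2.94 TPM in QKO, and Inhbb at 10.7 and 8.78 TPM in Dux-KO QKO and 11.3 and 7.14 TPM in QKO. Islr2 stood at 2.00 and 2.59 TPM in Dux-KO QKO and 1.88 and 1.95 TPM in QKO. Of these 4 genes Prmt8 and Inhbb overlapped between the groups, and Msc and Islr2 were slightly higher without Dux. Igsf21 stood at 0.433 and 0.86 TPM in Dux-KO QKO, against 2.31 and 1.18 TPM in QKO, lower in both libraries. Primitive endoderm markers summed to 359 to 372 TPM in Dux-KO QKO and 129 to 153 TPM in QKO, and neural markers to 241 to 261 TPM in Dux-KO QKO and 290 to 328 TPM in QKO. Their part in these values was not tested, and the 2 groups also differ in line name.

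In limma's test with Benjamini-Hochberg adjustment over all genes, called at an adjusted p below 0.05 and a log2 fold change of at least 1 in size, 0 of the 5 genes were called, against 6.54% of all genes tested. Unadjusted, 6857 of the 13862 genes tested had a limma p under 0.05, and of the 5 genes 1 did, Igsf21. The log2 fold change of Igsf21 was −0.72 (95% confidence interval −1.17 to −0.26, adjusted p 0.0144), short of the fold limit, with an adjusted p of 0.00563 to 0.164 over the alternatives. It was −1.02 without QKO replicate 2 (adjusted p 0.00648) and −1.3 with a pseudocount of 0.1 (adjusted p 0.00563), past both limits. Intervals of the others were −0.07 to 0.76 for Msc, −0.27 to 0.36 for Prmt8, −0.26 to 0.46 for Inhbb and −0.22 to 0.55 for Islr2 (adjusted p 0.171, 0.831, 0.677 and 0.482 in limma). The median of all genes was 0.22 in this comparison. Relative to it all 5 values but that of Msc were below 0, and with median-ratio scaling Prmt8 was at −0.14 and Inhbb at −0.12. With that scaling 355 genes were called higher and 349 lower, in place of 653 and 253.

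Doxycycline, which drives the Dux transgene, gave values below 0 for 36 of the 40 gene and genotype pairs, and 0 of 40 were called by limma (2 with a pseudocount of 0.1, and 1 with replicate numbers as a block, both given below). Unadjusted, 6 of 40 had a p under 0.05 in limma without a block, and 1 had an adjusted p under 0.05. Of all 13817 genes, an unadjusted p under 0.05 was found for 834 in control, 282 in Setdb1-KO, 864 in Suv39h1/2-DKO and 220 in Suv39h1/2;Setdb1-TKO. In G9a-less cells it was found for 1203 in G9a-KO, 2826 in G9a;Setdb1-DKO, 1200 in G9a;Suv39h1/2-TKO and 2226 in QKO. The 2-cell-like marker sum was 355 to 419 TPM with doxycycline and 29.1 to 38.5 TPM without in control, and 4060 to 8765 TPM with and 192 to 308 TPM without in G9a;Setdb1-DKO. The shares of all genes called were 0.181% in control, 0.166% in Setdb1-KO, 0.449% in Suv39h1/2-DKO, 0.246% in Suv39h1/2;Setdb1-TKO, 0.955% in G9a-KO, 1.05% in G9a;Setdb1-DKO, 0.456% in G9a;Suv39h1/2-TKO and 0.413% in QKO. At such shares 0 calls among 5 genes is near the background. Same-numbered libraries with and without doxycycline of 1 genotype deviated together in 8 of 8 genotypes (r of 0.177 to 0.748). The r was highest in Setdb1-KO (0.748) and G9a;Setdb1-DKO (0.688), whose replicate 2 had a high Snhg level in both states. It was lowest in G9a-KO (0.177) and control (0.231), with 1 such library each. The other genotypes, with none, had an r of 0.402 to 0.572. With a block for the replicate number in each genotype, chosen after seeing the data, 51 genes were called in control, 43 in Setdb1-KO and 254 in G9a;Setdb1-DKO, in place of 25, 23 and 145.

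Msc (−0.51), Prmt8, Inhbb and Islr2 each had their lowest doxycycline value in G9a;Setdb1-DKO, while Igsf21 had its lowest in Setdb1-KO (−0.38) and stood at −0.16 in G9a;Setdb1-DKO. Islr2 stood at 1.0 and 0.933 TPM with doxycycline and 2.92 and 2.32 TPM without, a log2 fold change of −0.87 (95% confidence interval −1.35 to −0.40, limma adjusted p 0.0386, 0.000594 to 0.161 over the alternatives). Inhbb stood at 2.58 and 2.68 TPM with and 4.98 and 6.43 TPM without (−0.88, −1.41 to −0.34, limma adjusted p 0.0633), and Prmt8 at 2.77 and 0.775 TPM with and 7.42 and 2.92 TPM without (−1.15, −2.17 to −0.13, limma adjusted p 0.187). None of these pairs of groups overlapped, Prmt8 only by 2.77 against 2.92 TPM. The share of all genes without such overlap was not computed, so no weight is put on it. With a pseudocount of 0.1 Islr2 (−1.34, limma adjusted p 0.00921) and Inhbb (−1.08, limma adjusted p 0.0431) passed both limits. With the block for replicate number in each genotype Prmt8 passed both (−1.15, limma adjusted p 0.000623), as it did with a block in each line (limma adjusted p 0.00283), and Islr2 and Inhbb stayed short of the fold limit (limma adjusted p 0.000594 and 0.00148). Over the alternatives the adjusted p of Prmt8 ran over 0.000623 to 0.547 and that of Inhbb over 0.00148 to 0.260. The median of all genes in this comparison was −0.22, and replicate 2 of both states is among the 6 libraries that stood apart. Without the 6, Islr2 was at −0.97 with an adjusted p of 0.133 in limma. Primitive endoderm markers summed to 71.2 to 103 TPM with doxycycline and 178 to 233 TPM without in these cells, and their part was not tested.

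Control cells, at the lower dose label, gave smaller values than G9a;Setdb1-DKO, but not than each genotype of the higher label. For Inhbb only G9a;Setdb1-DKO had a lower value than control. In control Islr2 stood at 17.8 and 17.9 TPM with doxycycline and 26.8 and 26.5 TPM without (−0.55, −1.02 to −0.08, limma adjusted p 0.773). Inhbb stood at 11.4 and 6.83 TPM with and 19.0 and 9.45 TPM without (−0.56, limma adjusted p 0.773). Without the 6 libraries, which include control replicate 1 without doxycycline, the value of Inhbb was −0.09 (limma adjusted p 0.948). Msc stood at 14 and 13.1 TPM with and 18 and 15.8 TPM without (−0.30, −0.82 to 0.23). In Suv39h1/2-DKO Islr2 was at 11 and 13.8 TPM with and 20.1 and 25.0 TPM without (−0.82, limma adjusted p 0.162). With the block for replicate number in each genotype, limma's adjusted p for Islr2 was 0.0497 in control, 0.00165 in Suv39h1/2-DKO and 0.0281 in QKO. That for Prmt8 was 0.0404 in G9a-KO, 0.0176 in G9a;Suv39h1/2-TKO and 0.00428 in QKO, and that for Inhbb 0.0295 in QKO. These values stayed short of the fold limit, and the block was chosen after seeing the data. Islr2, Prmt8 and Inhbb were below 0 in 8 of 8 genotypes, Msc in 7 and Igsf21 in 5, whose values ran over −0.38 to 0.19. All-gene medians lay between −0.22 and 0 as well, below 0 in 7 of the 8. Without the 6 libraries 33 of the 40 values were below 0, and the 3 that turned were Igsf21 in control (0.13) and Msc and Prmt8 in G9a-KO (0.03 and 0.09).

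**Figure D4:**
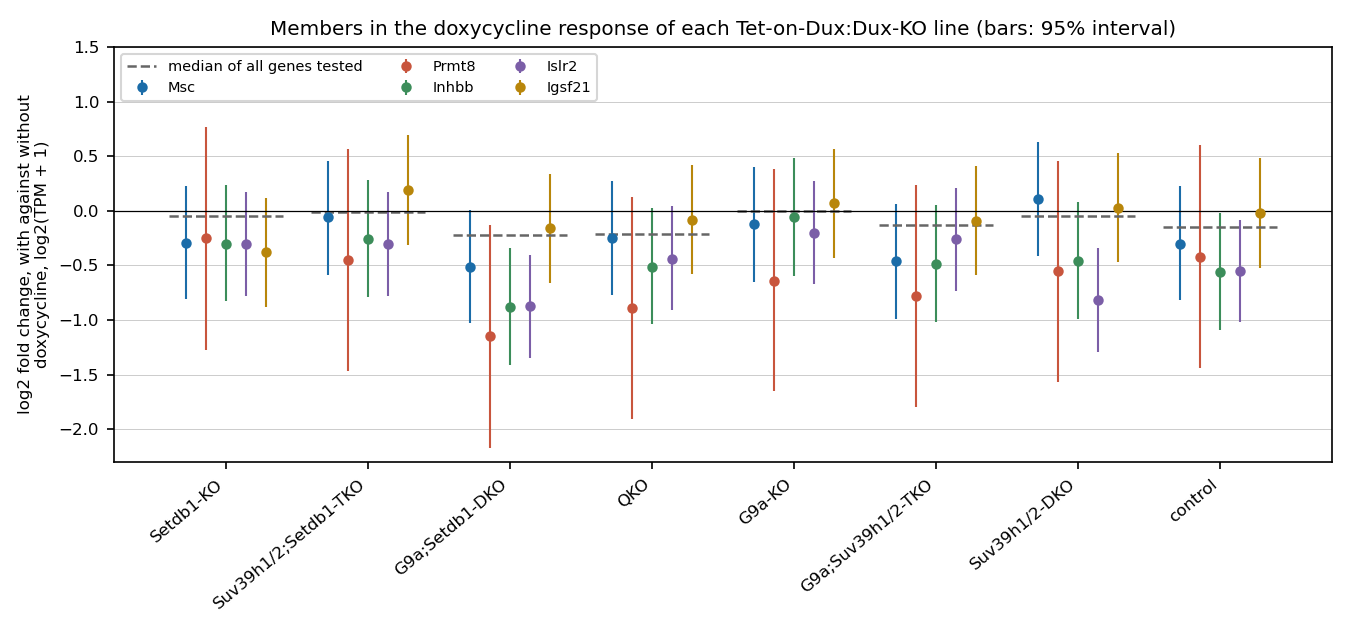
Log2 fold change with against without doxycycline of each gene in each of the 8 genotypes, with 95% confidence intervals, beside the median of all genes. The lowest point is Prmt8 in G9a;Setdb1-DKO at −1.15, and 34 of 40 intervals span 0.

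Whether the doxycycline response differed with Setdb1 loss was tested in the 4 pairs of genotypes with a common dose label. Of 20 differences 0 were called by limma, and in each pair the share of all genes called was 0%. With the block for replicate number in each genotype 0 of 20 were called as well, beside 55 of all genes for G9a;Setdb1-DKO against G9a-KO and 0 in the other 3 pairs. The smallest adjusted p was 0.753, and 2 of 20 had an unadjusted p under 0.05, beside 136, 81, 835 and 113 of all genes in the 4 pairs (Setdb1-KO against control, then the pairs lacking Suv39h1/2, G9a, and both). These 2 were Inhbb and Islr2 in G9a;Setdb1-DKO against G9a-KO, with a difference in log2 fold change of −0.82 (−1.58 to −0.06) and −0.67 (−1.34 to 0), where the median of all genes was −0.24. The widest intervals were those of Prmt8, which ran over −1.27 to 1.61 for Setdb1-KO against control and −1.96 to 0.92 in the pair lacking G9a.

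On the lists of relatives of the 5 genes, Inha and Tcf15 were called lower in all 3 genotypes tested, as was Tubb3 of the list of neural genes. The call of Tcf15 in G9a-KO was lost with no filter. Other genes of the lists of relatives were called higher, such as Fst, Lefty1, Lefty2 and Id2 in G9a-KO and Id3 and Hand1 in Setdb1-KO. Lists were tested in Setdb1-KO, G9a-KO and QKO against control, which share their control libraries. Of all genes, 4.12% were called higher and 2.16% lower in Setdb1-KO, 5.52% and 3.74% in G9a-KO, and 10.1% and 5.42% in QKO. With median-ratio scaling the split in Setdb1-KO was 701 higher and 199 lower in place of 571 and 300. Without Setdb1-KO replicate 2 it was 558 higher and 529 lower, and without replicate 1 it was 636 and 219.

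The list of activin and Nodal ligands and antagonists also holds Tgfb1. Of its 11 genes tested apart from the 5 members, 0 were called higher and 1 lower in Setdb1-KO, 3 and 2 in G9a-KO, and 0 and 4 in QKO. Their median log2 fold change was −0.48, −0.37 and −0.58 in that order, beside −0.12, −0.01 and −0.05 over all genes. Inha, the alpha subunit that pairs with Inhbb's product in inhibin B, fell in all 3: it averaged 5.49 TPM in Setdb1-KO, 8.35 TPM in G9a-KO and 4.71 TPM in QKO, against 21.5 TPM in control (log2 fold change −1.79, −1.26 and −1.98, limma adjusted p 8.32e-05, 0.00105 and 1.15e-05). The activin antagonist Fst (1.76) and the Nodal antagonists Lefty1 (1.74) and Lefty2 (1.37) rose in G9a-KO. Gdf1 fell in G9a-KO (−1.14, limma adjusted p 0.0426), a call lost with a pseudocount of 0.1, with no filter and with median-ratio scaling, and in QKO (−1.77), as did the follistatin-like Fstl1 (−1.27) and Tgfb1 (−1.19) there. The paralogue Inhbc was near 1 TPM, with 0.718 TPM in Setdb1-KO, 0.860 TPM in G9a-KO and 1.17 TPM in QKO, against 1.40 TPM in control, and was not called. Of 11 receptors and signal carriers, 1 was called higher, Tgfbr2 in G9a-KO (1.66), and 0 lower in the 3 genotypes.

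Of 7 other protein arginine methyltransferases, 0 were called in Setdb1-KO and G9a-KO, and 1 was called lower in QKO. This was Prmt5, the main enzyme of symmetric dimethylation, at 84.2 TPM in QKO and 187 TPM in control (−1.15, limma adjusted p 2.57e-06). Prmt1, the closest relative of Prmt8, averaged 655 TPM in Setdb1-KO, 686 TPM in G9a-KO and 429 TPM in QKO, against 704 TPM in control, and was not called. Of 13 other bHLH factors and partners, 2 were called higher and 2 lower in Setdb1-KO, 3 and 1 in G9a-KO, and 1 and 2 in QKO. Tcf15, a bHLH factor of the epiblast and mesoderm, fell in all 3 (−1.49, −1.11 and −2.35), though in G9a-KO its call was lost with no filter (adjusted p 0.0547 in limma). Of the Id inhibitors of bHLH factors, Id3 rose in Setdb1-KO (1.51) and G9a-KO (1.29), Id2 in G9a-KO (2.17) and Id4 in QKO (1.9), while Id1 fell in QKO (−1.08). Hand1 rose in Setdb1-KO (1.3) and Tcf23 in G9a-KO (2.06). Tcf4 fell in Setdb1-KO (−1.09), a call lost with median-ratio scaling.

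The list of leucine-rich repeat and immunoglobulin proteins also holds the receptor tyrosine kinase gene Ret. Of its 13 genes tested apart from the 5 members, 0 were called higher and 1 lower in Setdb1-KO, 0 in G9a-KO, and 2 higher and 2 lower in QKO. Lrfn4, a synaptic adhesion protein, fell in Setdb1-KO (−1.06, a call lost with median-ratio scaling) and QKO (−1.43), Lrfn3 fell in QKO (−1.12), and Amigo2 (1.49) and the receptor tyrosine kinase gene Ret (1.09) rose there. With a pseudocount of 0.1, 4 of the 13 were called lower in G9a-KO: Amigo1 (−1.20), Lingo3 (−1.69), Lrfn3 (−1.07) and Lrrc4 (−1.42). Of 12 other synaptic adhesion and immunoglobulin superfamily genes, 0 were called in Setdb1-KO and G9a-KO, and 4 were called lower in QKO: Cadm4 (−1.64), Igsf8 (−1.60), Igsf23 (−1.25) and Nrxn2 (−1.01), the last a call lost with median-ratio scaling. With a pseudocount of 0.1, 2 of the 12 were called lower in Setdb1-KO and 2 in G9a-KO. Of 15 neural genes, 1 was called higher and 4 lower in Setdb1-KO, 1 and 3 in G9a-KO, and 0 and 5 in QKO. Their median log2 fold change was −0.80, 0.15 and −0.31 in that order, beside −0.12, −0.01 and −0.05 over all genes. Tubb3, a neuronal tubulin, fell in all 3, to 48.2 TPM in Setdb1-KO, 64.3 TPM in G9a-KO and 46.5 TPM in QKO, against 133 TPM in control. Olig2, a neural progenitor factor, fell in G9a-KO (−2.12) and QKO (−2.79), and Sox1 in Setdb1-KO (−2.21) and QKO (−1.19). With a pseudocount of 0.1, 1 of the 15 neural genes was called higher and 9 lower in Setdb1-KO, 3 and 3 in G9a-KO, and 0 and 6 in QKO.

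Genes of the 2-cell stage were called higher in most members of their list, as were those of the primitive endoderm in G9a-KO. Of 20 tested genes of the 2-cell stage and Dux targets, 17 were called higher in Setdb1-KO, 18 in G9a-KO and 20 in QKO, and 0 lower. Of 16 primitive endoderm genes, 16 were called higher in G9a-KO, 3 in Setdb1-KO and 3 in QKO, with 1 lower in Setdb1-KO. Of 20 pluripotency genes, 0 were called higher and 3 lower in Setdb1-KO (Prdm14 at −1.38, Klf4 at −1.31 and Nr0b1 at −1.22), 0 and 2 in G9a-KO (Nr5a2 at −1.21 and Esrrb at −1.04), and 3 and 0 in QKO (Tcl1 and Dppa5a at 1.34, Tbx3 at 1.08). Of 9 primed epiblast genes, 1 was called higher and 1 lower in Setdb1-KO (Otx2 at 3.35, Fgf15 at −1.07), 1 and 0 in G9a-KO (Otx2 at 1.59), and 3 and 0 in QKO (Otx2 at 3.75, Sox3 at 1.38 and Fgf5 at 1.27). The call of Fgf15 was lost with median-ratio scaling. Of 4 fibroblast genes tested, 1 was called higher in each: Thy1 in Setdb1-KO, Vim in G9a-KO, and Lum in QKO, which is listed at 0 in control.

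The genes most like each of the 5 were sought among 730 genes whose group means spanned at least 2 log2 units in both tables, by the mean of Pearson's r over the 9 groups of the first and the 16 of the second table. For Islr2 these were H2-Q10 (0.969), Ehbp1l1 (0.961) and Nxph4 (0.960), and for Igsf21 Qprt (0.964), Tex40 (0.952) and Prph (0.948), the gene of the neuronal filament peripherin. For Msc they were Myo1f (0.923), Tgfbi (0.916) and Tril (0.902), for Prmt8 Actn3 (0.913), Vegfa (0.889) and Tgfbi (0.872), and for Inhbb Vegfa (0.878), Sema5b (0.841) and Dnajc6 (0.840). Tgfbi, an extracellular matrix protein induced by TGF-beta, and Vegfa, the angiogenic growth factor, were each among the 3 for 2 of the genes. Groups of the same line share their origin, and no p is given.

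Neighbours were taken outside the span of each gene, so Islr, which overlaps Islr2, was not among them. The nearest tested protein-coding gene on each side of the 5 was called in 4 of 30 gene and genotype pairs, 1 of 10 in Setdb1-KO, 2 of 10 in G9a-KO and 1 of 10 in QKO. Of all genes 6.28%, 9.26% and 15.6% were called in these genotypes, so the count lies near the background. Pml, 12.9 kb from Islr2, fell in G9a-KO to 54.6 TPM, against 117 TPM in control (−1.08, limma adjusted p 3.21e-05), and was at 130 TPM in QKO (0.15), where Islr2 was low. Gli2, 361 kb from Inhbb, fell in Setdb1-KO to 7.75 TPM, against 20.6 TPM in control (−1.32, limma adjusted p 6.41e-06). Eya1, 442 kb from Msc, rose in G9a-KO (1.25), and Arhgef10l, 268 kb from Igsf21, fell in QKO (−1.08). Cracr2a at 14.8 kb from Prmt8, Stra6 at 42.3 kb from Islr2, Ralb at 48.1 kb from Inhbb and Klhdc7a at 58.8 kb from Igsf21 were not called in any of the 3 genotypes.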

How the data were processed

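Values are TPM as the authors deposited them, separately for libraries without and with the Dux transgene. Per the submitters' processing notes, STAR 2.7.10b, Bowtie2 2.3.4.1, RSEM 1.3.1, SAMtools 1.9 and the mm10 build were used, in roles and with an annotation not given in the sources used here. Each table was fitted on its own with limma 3.58.1 (R 4.3.3, with data.table; Python 3.11.15, pandas 2.3.3 and matplotlib 3.10.9 for sequences and figures): log2(TPM + 1), genes that reached 1 TPM in 2 libraries or more, 1 mean per group and a shared, trended spread, after a test on simulated data. The pseudocount understates changes of low genes. Benjamini-Hochberg adjustment ran over all genes tested, and a call needed an adjusted p under 0.05 with a log2 fold change of 1 or more in size. The members and lists were chosen with earlier results of these data known. By rule the text names the 5 members, the targeted genes, up to 4 called genes and 1 uncalled relative per list, the 3 genes most alike and the nearest coding genes. 0 columns lacked a sample, and 2 transgene rows were left out. Alternatives were a pseudocount of 0.1, no filter, median-ratio scaling, a replicate block, each library left out, and the 6 libraries that stood apart left out. Blocks for replicate number within each line and within each genotype were added after seeing the data: same-numbered libraries with and without doxycycline of 1 genotype deviated together in 8 of 8 genotypes. The labels do not say that a number marks a shared culture, so the fit without a block was kept, with blocked values beside results whose call they change. The list of activin and Nodal feedback and target genes is not reported here.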

Additional observations from a re-analysis of the deposited data

Results flagged for a closer look

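Msc in G9a-KO stood on opposite sides of control in the 2 tables. In libraries without the Dux transgene it was at 42.9 and 36.3 TPM in G9a-KO, against 53.2 and 45.5 TPM in control, a log2 fold change of −0.31. In Tet-on-Dux:Dux-KO libraries without doxycycline it was at 31.9 and 33.1 TPM in G9a-KO, against 18 and 15.8 TPM in control, a log2 fold change of 0.91. Both libraries moved one way in each table. The mean of G9a-KO was 39.6 TPM in the first and 32.5 TPM in the second table, and that of control 49.3 and 16.9 TPM, so the control levels lay further apart. The tables were fitted separately, and the difference in Msc was not tested. Most libraries of the second table also had a lower Snhg level than those of the first.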

How the results depend on the processing

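With 2 libraries a group, TPM of unknown depth and levels near 1 TPM in several groups, small responses of the 5 genes could go undetected. All 55 genotype values of the first table kept their sign with a pseudocount of 0.1 and with median-ratio scaling. The causes of the changes below were not tested.

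With a pseudocount of 0.1, 1654 genes were called in Setdb1-KO (871 in the report's setting), 2320 in G9a-KO (1284), 1552 for Dux loss (906), 226 for doxycycline in G9a;Setdb1-DKO (145) and 87 in QKO (57), and Islr2 (−1.34) and Inhbb (−1.08) were called for doxycycline in G9a;Setdb1-DKO. With no filter 2 genes (0) were called for the difference in doxycycline response in QKO. With median-ratio scaling doxycycline calls in control were 39 (25), Dux loss gave −0.14 for Prmt8 and −0.12 for Inhbb, and doxycycline gave 0.15, 0.04 and 0.06 for Igsf21 in control, G9a;Suv39h1/2-TKO and QKO; calls in G9a;Setdb1-DKO were 120 higher and 10 lower, in place of 104 and 41. With the 6 high-Snhg libraries left out, doxycycline calls were 51 in control, 106 in Suv39h1/2-DKO (62), 64 in Suv39h1/2;Setdb1-TKO (34), 133 in G9a;Suv39h1/2-TKO (63) and 130 in QKO, 32 (0) for the difference in G9a;Setdb1-DKO, and values were 0.13 for Igsf21 in control and 0.03 for Msc and 0.09 for Prmt8 in G9a-KO.

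A replicate block moved no count of calls by over 1.5 times and called none of the 5 genes: Dux loss had 655 higher and 261 lower calls, and Igsf21 −0.72 (limma adjusted p 0.00658). Same-numbered libraries of groups of 1 line deviated together (r over 0.1) in 4 of 4 pairs of the first and 19 of 24 of the second table, and those of different lines in 21 of 32 and 47 of 96, so the numbers were not taken to pair genotypes. In the first table most pairs short of 0.1 were those with Dux-KO QKO. Its r with each other group was −0.059 to 0.066. Same-numbered libraries with and without doxycycline of 1 genotype deviated together in 8 of 8. A line by replicate block, chosen after seeing the data, gave 39 doxycycline calls in control, 102 in Suv39h1/2-DKO, 53 in Suv39h1/2;Setdb1-TKO, 209 in G9a-KO, 244 in G9a;Setdb1-DKO, 99 in G9a;Suv39h1/2-TKO and 117 in QKO, and called Prmt8 in G9a;Setdb1-DKO (−1.15, limma adjusted p 0.00283). A genotype by replicate block, chosen likewise, gave 51, 108, 56, 235, 254, 109 and 132 in that order and 43 in Setdb1-KO (23), 55 (0) for the difference in G9a;Setdb1-DKO, and called Prmt8 there (−1.15, limma adjusted p 0.000623).

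Leaving out each library in turn, where a lone library is assumed to vary like the others, doxycycline calls ran over 14 to 19 in control, 8 to 24 in Setdb1-KO, 34 to 65 in Suv39h1/2-DKO, 73 to 281 in G9a-KO (132; 281 without replicate 1 with doxycycline, 73 without replicate 2), 73 to 236 in G9a;Setdb1-DKO, 32 to 45 in G9a;Suv39h1/2-TKO and 35 to 42 in QKO, and 0 to 2 for the difference in G9a;Setdb1-DKO. Dux loss gave −0.08 to 0.17 for Prmt8 and −0.20 to 0.39 for Inhbb. Doxycycline gave −0.22 to 0.44 for Msc and −0.17 to 0.22 for Igsf21 in Suv39h1/2-DKO, −0.43 to 0.30 for Msc in Suv39h1/2;Setdb1-TKO, and in G9a-KO −0.27 to 0.03 for Msc, −1.36 to 0.09 for Prmt8, −0.28 to 0.16 for Inhbb, −0.50 to 0.10 for Islr2 and −0.23 to 0.37 for Igsf21. Igsf21 ran over −0.16 to 0.13 in control, −0.38 to 0.06 in G9a;Setdb1-DKO, −0.33 to 0.16 in G9a;Suv39h1/2-TKO and −0.29 to 0.13 in QKO.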
